A study of Mus musculus with 8 samples.

Results

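The 37 genes described here encode the machinery that copies DNA at the replication fork, supplies it with deoxynucleotides and packs the new strands into chromatin. They were taken by symbol from a count table of 32499 mouse genes, in which all 37 were present, and all 37 had enough reads to be among the 15021 genes tested. They fall into 6 roles: 9 genes of DNA polymerases and primase, 6 of the sliding clamp and its loader, 5 of GINS and CDC45, 5 of RPA and flap processing, 6 of nucleotide supply and uracil removal, and 6 of chromatin assembly and the copying of DNA methylation.

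RNA-seq of total RNA was done on 4 samples labelled 53BP1 KO and 4 samples labelled control, all of them neural progenitor cells of the neural tube at embryonic day 14 on a C57BL/6 background. The gene Trp53bp1 encodes 53BP1, which binds chromatin at DNA double-strand breaks and steers their repair. The 53BP1 KO embryos came from females with the targeted allele Trp53bp1tm1Jc crossed to males with in-frame deletions made by Cas9 injection of zygotes, and the controls were wild-type embryos, per the labels' protocols. Cells were sorted with NeuroFluor CDr3, a dye that binds the radial glial protein Fabp7. The labels name neither the embryo behind each library nor the exact deletion it carried, and they do not say whether its cells were cultured in differentiation medium after sorting. Replicates are therefore separate samples of unstated origin, and the p-values reflect the variation among these samples alone, part of which may be technical.

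Total counts ran from 11081419 to 24339621 in the 53BP1 KO libraries and from 15343046 to 18189045 in the controls, and the lowest count of any of the 37 genes in any library was 48. Trp53bp1, which lies on chromosome 2 as do Pcna, Gins1 and Dut of the 37 genes, averaged 27.1 ± 6.36 CPM in 53BP1 KO and 26.8 ± 0.349 CPM in control libraries (SD, n = 4 each), where CPM is the count per 1000000 reads of a library, scaled between libraries. What the targeted allele and the in-frame deletions each do to the gene's total count was not tested, and this level is therefore no check of the labels. Xist, the RNA of the inactive X chromosome, averaged 0.768 ± 0.435 CPM in 53BP1 KO and 1463 ± 119.7 CPM in control libraries, and the Y-linked gene Ddx3y 47.3 ± 2.85 CPM in 53BP1 KO libraries with no read in any control. Every 53BP1 KO library thus had male and every control library female expression, so genotype and sex cannot be told apart in any difference below. Fabp7, the target of the sorting dye, averaged 7793 ± 1269 CPM in 53BP1 KO and 7591 ± 1014 CPM in control libraries, while the erythroid list summed to at most 2.14 CPM and the microglial list to at most 4.78 CPM in any library.

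At a replication fork, CDC45 and GINS join the MCM ring to form the helicase that unwinds DNA, and RPA coats the single strands. Primase and polymerase alpha lay down primers, RFC loads the ring-shaped clamp PCNA onto them, and polymerases epsilon and delta extend the leading and lagging strands, whose flaps FEN1 trims and ligase I seals. Many of these genes are transcribed mainly at the passage from G1 to S phase, largely through E2F factors, and in the embryonic neural tube they mark dividing progenitors as opposed to the neurons and glia that arise from them.

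Replication genes were lower in the 53BP1 KO libraries across all 6 roles. Of the 37 genes, 33 fell and none rose, with edgeR's quasi-likelihood test at a Benjamini-Hochberg adjusted p under 0.05 across all genes. Of all genes tested 30.0% changed, 13.9% falling and 16.1% rising. In bulk RNA, fewer dividing cells and less RNA of these genes per dividing cell cannot be told apart. The median log2 fold change of the 37 genes was -0.84, against 0.00 over all genes. For 31 of the 37 every 53BP1 KO library lay below every control library, which held for 13.9% of all genes. A fall of more than 2-fold was seen for 12 of the 37, against 2.70% of all genes, and tested against 1.5-fold 17 of the 37 fell, against 1.92% of all genes. At an unadjusted p under 0.05 no member was higher either, and none was with DESeq2 or limma voom. The 4 genes that did not pass were Pold2, Rfc4, Gins4 and Rpa3, which are 1 subunit each of polymerase delta, the clamp loader, GINS and RPA. They are also short, with 1896, 1533, 1349 and 1136 bases of annotated exon. Of the other members only Gins1, with 1516 bases, is shorter than Pold2, and Gins1 fell. The part of length in these calls was not tested. Among the 33, the fall of Pcna is uncertain because reads may be shared with a copy, as described with the clamp.

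**Figure D1:**
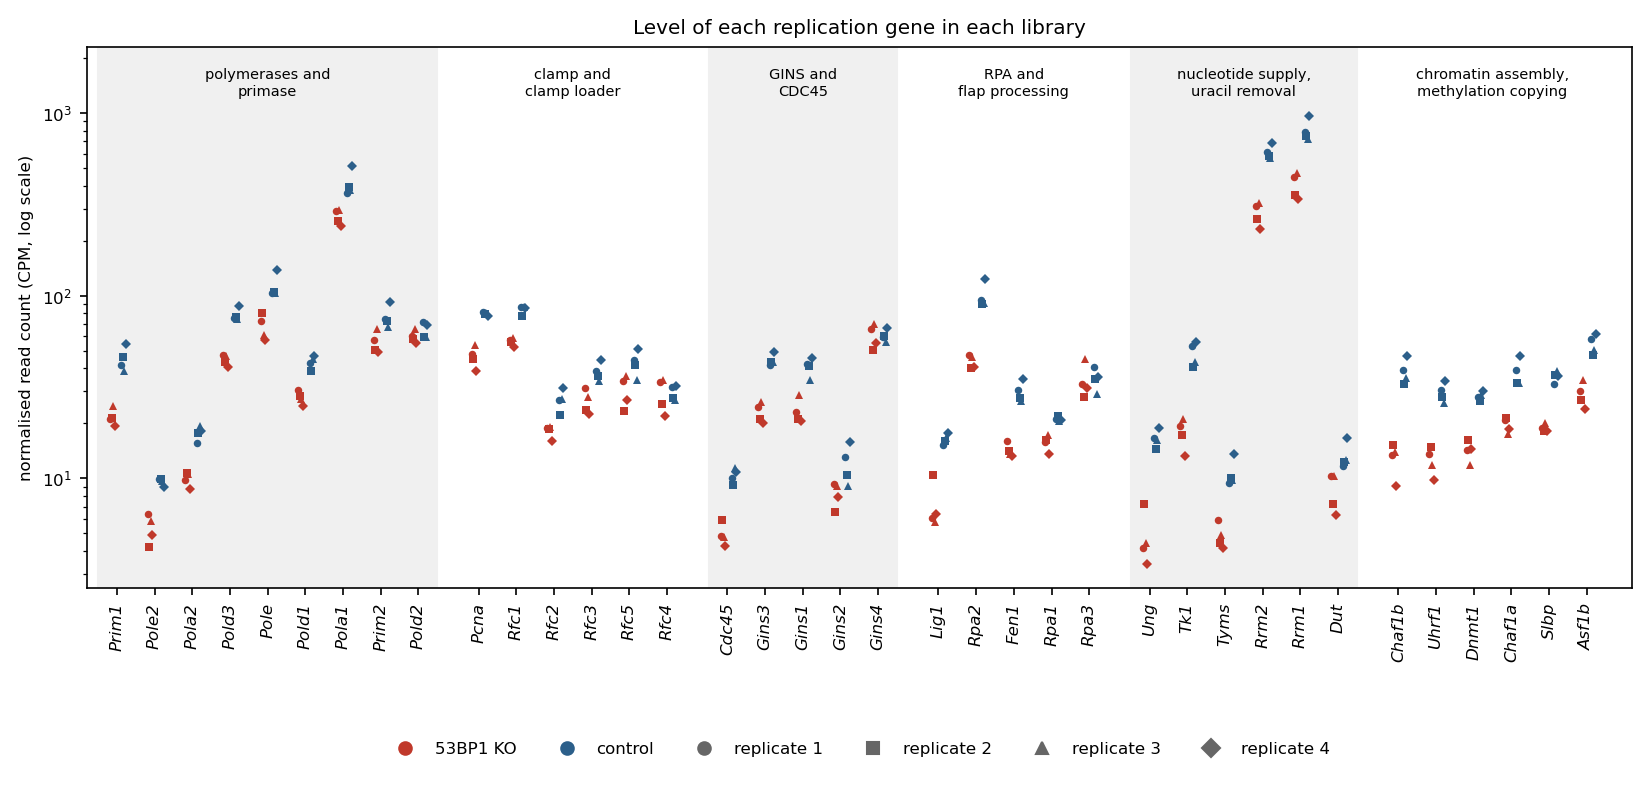
Normalised read count (CPM, log scale) of the 37 genes in each of 4 53BP1 KO (red, left of each pair) and 4 control (blue, right) libraries, with a marker shape per replicate number; genes are grouped by role and ordered by fold change within a role. The groups do not overlap for 31 genes, while Pold2, Rfc4, Rfc5, Gins2, Gins4 and Rpa3 overlap.

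Libraries of 1 group differed in the level of these genes. The sum of the 37 genes was between 1581 and 2039.8 CPM in the 53BP1 KO libraries and between 3006 and 3780.0 CPM in the controls. On the mean of each group, Rrm1, Rrm2 and Pola1 together made up most of this sum. 53BP1 KO replicate 4 had the lowest value of its group for 28 of the 37 genes, and control replicate 4 had the highest of its group for 28. Without 53BP1 KO replicate 4 the number of genes that fell was 31, without control replicate 4 it was 32, and without both it was 29, with a median of -0.77. The genes whose calls were lost without both were Prim2, Rfc5, Gins2 and Dut.

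By role, the median log2 fold change was -1.13 for nucleotide supply and uracil removal, -1.08 for RPA and flap processing, -0.98 for chromatin assembly, -0.81 for GINS and CDC45, -0.73 for polymerases and primase, and -0.55 for the clamp and its loader. These medians are descriptions of 5 to 9 genes each, and differences between roles were not tested. All 6 genes of nucleotide supply and all 6 of chromatin assembly fell, and each of the other roles had 1 gene that did not pass.

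**Figure D2:**
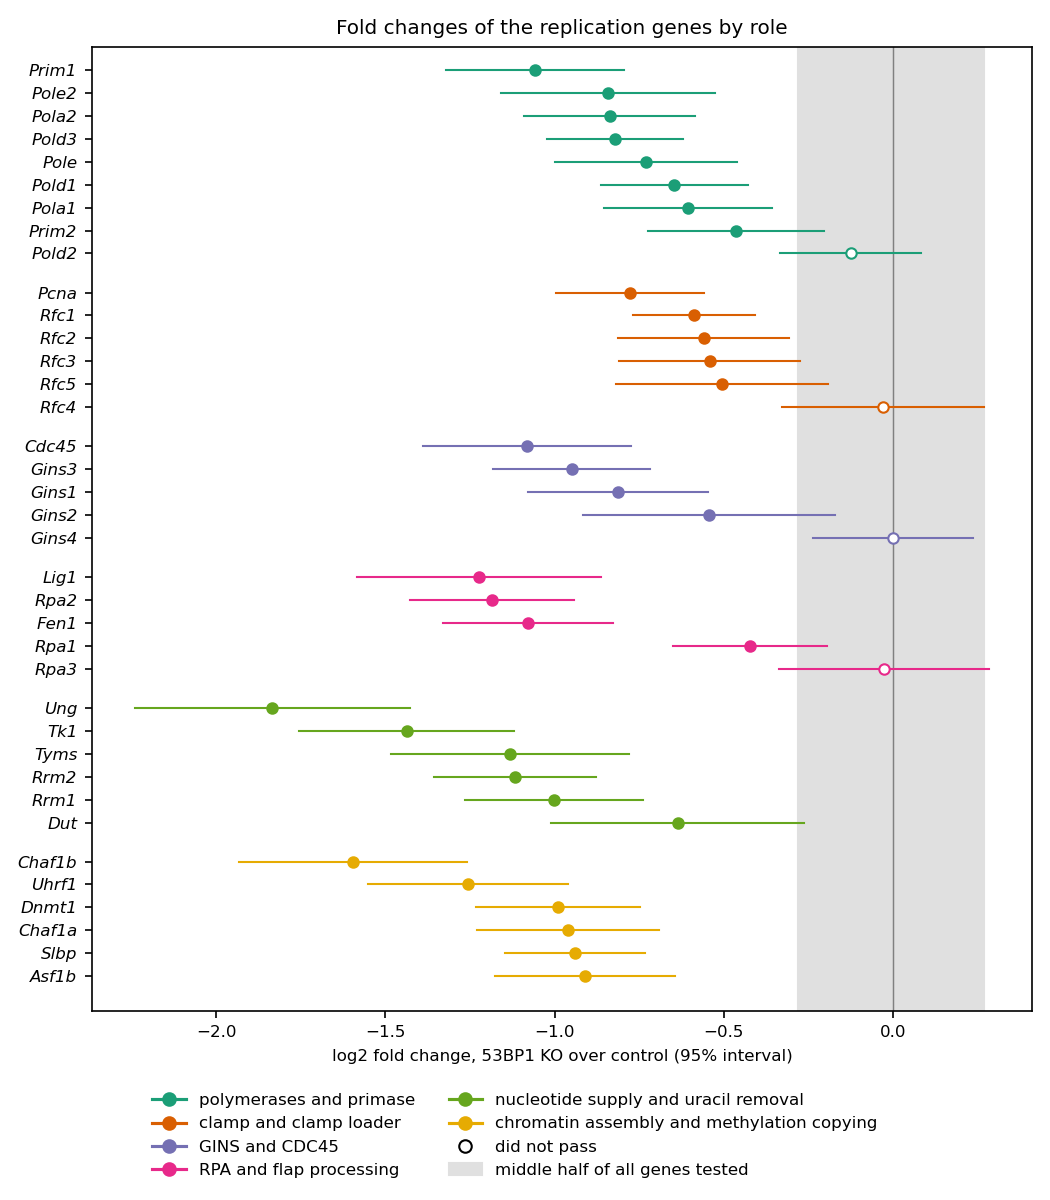
Log2 fold change of 53BP1 KO over control for each gene with its 95% interval, coloured by role; open circles did not pass the test, and the grey band spans the lower to the upper quartile of all 15021 genes tested. Ung (-1.83) and Chaf1b (-1.60) lie farthest to the left, and Pold2, Rfc4, Gins4 and Rpa3 lie inside the band.

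The promoters of these genes were searched for short motifs of cell cycle transcription. The RefSeq promoter table (build GRCm38.p6, 250 bases before to 50 bases after each start) held 31 of the 37 genes. An E2F site, searched as TTTCCCGC, TTTGGCGC, TTTGCCGC or TTTCGCGC on both strands in the window of any start listed for a gene, was found for 9 of the 31, or 29.0%, against 4.60% of the tested genes with a promoter and 2.61% of all genes in the table. The 9 were Pola1, Pold1, Pold3, Pole2, Rfc3, Gins3, Lig1, Uhrf1 and Dnmt1. All 9 fell, as did 28 of the 31 searched genes. The 3 searched genes that did not pass held no E2F site, but 3 genes are too few to set against the 28. The CCAAT box, the letters CCAAT, was found for 58.1% against 43.0% of tested genes, the GC box GGGCGG for 80.6% against 68.5%, and the CHR element TTTGAA for 19.4% against 14.2%. Over all genes with a promoter these shares were 41.1% for the CCAAT box, 38.2% for the GC box and 20.2% for the CHR element. GC boxes and E2F sites can share letters and were counted separately. A match is a description of letters and not of binding, and no match says only that these letters are not in this window.

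Of these, 7 promoters are shown as the 200 bases before the start, 5′ to 3′ on the gene's strand, with E2F sites and CCAAT boxes in capitals. Gins3 (chr8:95633359-95633558 on the plus strand), Pola1 (chrX:93632156-93632355 on the minus strand) and Rfc3 (chr5:151651209-151651408 on the minus strand) hold an E2F site in that stretch, whose first base lies 41 bases before the start in Gins3, 138 in Pola1 and 10 in Rfc3. Ung (chr5:114130235-114130434 on the plus strand) and Chaf1b (chr16:93883701-93883900 on the plus strand) had the largest falls and hold neither motif. Rfc4 (chr16:23127731-23127930 on the minus strand) and Rpa3 (chr6:8259142-8259341 on the minus strand) did not pass the test, and Rpa3 holds a pair of CCAAT boxes on the opposite strand.
Gins3: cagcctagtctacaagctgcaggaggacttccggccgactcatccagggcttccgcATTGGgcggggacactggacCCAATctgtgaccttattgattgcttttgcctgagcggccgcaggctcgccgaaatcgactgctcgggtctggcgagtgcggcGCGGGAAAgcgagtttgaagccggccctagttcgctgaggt
Pola1: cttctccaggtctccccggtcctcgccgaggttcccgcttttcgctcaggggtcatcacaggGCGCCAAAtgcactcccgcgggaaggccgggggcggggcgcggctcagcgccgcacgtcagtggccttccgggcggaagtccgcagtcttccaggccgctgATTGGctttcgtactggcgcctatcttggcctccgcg
Rfc3: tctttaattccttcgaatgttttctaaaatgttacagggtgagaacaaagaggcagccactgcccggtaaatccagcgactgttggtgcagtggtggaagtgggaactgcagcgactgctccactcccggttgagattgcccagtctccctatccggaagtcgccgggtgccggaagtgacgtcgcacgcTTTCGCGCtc
Ung: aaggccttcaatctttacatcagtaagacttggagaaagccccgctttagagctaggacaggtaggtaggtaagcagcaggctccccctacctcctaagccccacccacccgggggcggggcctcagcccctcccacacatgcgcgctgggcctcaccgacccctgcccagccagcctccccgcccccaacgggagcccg
Chaf1b: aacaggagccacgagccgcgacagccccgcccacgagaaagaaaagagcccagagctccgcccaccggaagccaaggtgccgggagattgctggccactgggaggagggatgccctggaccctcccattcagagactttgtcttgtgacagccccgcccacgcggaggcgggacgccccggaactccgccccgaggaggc
Rfc4: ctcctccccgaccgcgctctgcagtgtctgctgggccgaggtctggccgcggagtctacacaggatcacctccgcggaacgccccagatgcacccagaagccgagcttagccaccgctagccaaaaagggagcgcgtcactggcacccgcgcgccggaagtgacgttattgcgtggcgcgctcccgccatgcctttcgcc
Rpa3: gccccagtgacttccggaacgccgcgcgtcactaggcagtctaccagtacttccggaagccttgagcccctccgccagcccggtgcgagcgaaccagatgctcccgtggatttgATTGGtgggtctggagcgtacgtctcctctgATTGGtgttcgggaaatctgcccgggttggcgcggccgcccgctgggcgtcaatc

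Of the polymerase and primase genes, 8 of 9 fell. Prim1, the catalytic subunit of primase, had 21.1, 21.5, 25.0 and 19.3 CPM in 53BP1 KO replicates 1 to 4 and 42.0, 45.9, 38.5 and 54.3 CPM in control replicates 1 to 4. Its highest 53BP1 KO library lay well under its lowest control (log2 fold change -1.06, SE 0.12, adjusted p = 1.98e-05). Prim2, the other primase subunit, fell less (log2 fold change -0.46, SE 0.12, adjusted p = 0.0101), and its groups came within 1.01-fold of each other. The ratio of Prim1 to Prim2 differed between the groups: its log2 value averaged -1.35 ± 0.10 in 53BP1 KO and -0.77 ± 0.07 in control libraries (SD, n = 4 each), and all 4 53BP1 KO ratios lay below all 4 control ratios (adjusted p = 0.0429 by the exact permutation test described below). Leaving out any 1 library other than control replicate 4 raised this to 0.0571, while the ratios of the groups stayed apart.

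Pola1, the catalytic subunit of polymerase alpha and the only X-linked gene among the 37, had 292, 258, 295 and 240.5 CPM in 53BP1 KO and 363, 395, 377 and 515 CPM in control libraries. The groups did not overlap, control replicate 4 stood above the other controls, and the gene fell (log2 fold change -0.61, SE 0.12, adjusted p = 0.00125). Its partner Pola2 fell too (-0.84, SE 0.12). The leading strand polymerase had its catalytic subunit Pole (-0.73, SE 0.13) and its accessory subunit Pole2 (-0.84, SE 0.15) lower, as had polymerase delta with its catalytic subunit Pold1 (-0.65, SE 0.10) and its accessory subunit Pold3 (-0.82, SE 0.09). Pold2, the subunit that bridges Pold1 and Pold3, did not pass. It had 60.3, 58.0, 65.5 and 55.0 CPM in 53BP1 KO and 71.7, 59.5, 59.7 and 69.4 CPM in control libraries, which overlap (log2 fold change -0.12, SE 0.10, adjusted p = 0.365, 95% interval -0.33 to 0.08).

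In the clamp and clamp loader, 5 of 6 genes fell. Rfc1, the large subunit of the loader, had 57.3, 55.8, 58.6 and 52.5 CPM in 53BP1 KO and 87.0, 77.7, 86.7 and 85.5 CPM in control libraries. These values leave a gap between the groups (log2 fold change -0.59, SE 0.08, adjusted p = 1.29e-04). Of the small subunits, Rfc2 (-0.56, SE 0.12), Rfc3 (-0.54, SE 0.12) and Rfc5 (-0.51, SE 0.15) fell, whereas Rfc4 had 33.6, 25.6, 34.4 and 22.1 CPM in 53BP1 KO and 31.5, 27.6, 26.8 and 32.1 CPM in control libraries, with the groups mixed (log2 fold change -0.03, SE 0.14, adjusted p = 0.898, 95% interval -0.33 to 0.27). The Rfc5 call was lost without 53BP1 KO replicate 4 (adjusted p = 0.0632 by edgeR). Exons of Rfc2, Rfc4 and Rfc5 overlap those of Lat2, Eif4a2 and Wsb2 on the opposite strand in GENCODE M21, and the sources used here do not give the strand setting of the counting, so the counts of these members are uncertain. None of the overlapping genes passed the test (-0.19 for Lat2, -0.13 for Eif4a2 and -0.15 for Wsb2).

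Pcna, the sliding clamp itself, had 48.2, 45.2, 53.8 and 38.5 CPM in 53BP1 KO and 81.2, 79.0, 79.9 and 77.9 CPM in control libraries. The 4 controls lay within a narrow range above all 53BP1 KO libraries (log2 fold change -0.78, SE 0.10, adjusted p = 6.54e-05). The table also lists Pcna-ps2, a processed pseudogene on chromosome 19 whose transcript matches Pcna over 781 bases at 99.2% identity, and it moved the other way. Pcna-ps2 had 118, 88.9, 149.7 and 92.3 CPM in 53BP1 KO and 44.1, 56.4, 49.2 and 52.2 CPM in control libraries (log2 fold change 1.15, SE 0.15, adjusted p = 5.25e-05). With reads of both counted as 1 gene, an alternative chosen after these values were seen, the level was 166, 134, 203 and 131 CPM in 53BP1 KO and 125, 135, 129 and 130.0 CPM in control libraries. That sum did not fall: its log2 fold change was 0.29 (SE 0.12, adjusted p = 0.0956 by edgeR). How reads were shared between Pcna and its copy was not tested, and the direction for Pcna is therefore uncertain.

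Of the GINS genes and Cdc45, 4 of 5 fell. Cdc45, the factor that joins the MCM ring and GINS in the helicase, had 4.82, 5.92, 4.79 and 4.23 CPM in 53BP1 KO and 10.1, 9.17, 11.4 and 10.8 CPM in control libraries. Every control lay above every 53BP1 KO library (log2 fold change -1.08, SE 0.14, adjusted p = 6.68e-05). Gins3 (-0.95, SE 0.11) and Gins1 (-0.81, SE 0.12) fell with no overlap between the groups. Gins4 is the member of the tetramer that did not pass, and it had 65.6, 50.7, 70.0 and 55.3 CPM in 53BP1 KO and 59.5, 59.8, 55.5 and 66.9 CPM in control libraries, with a fold change near nil and a 95% interval of -0.24 to 0.24 (log2 fold change 0.00, SE 0.11, adjusted p = 0.997). Gins2 had overlapping groups and the largest adjusted p of the 33 falls (log2 fold change -0.54, SE 0.17, adjusted p = 0.0297), and its call was lost without 53BP1 KO replicate 2 or 4 and without control replicate 1 or 4. Exons of Gins2 overlap 2758 bases of Gse1 on the opposite strand, and Gse1 did not pass (-0.05).

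Among RPA and flap processing genes, 4 of 5 fell. Lig1, the ligase that seals Okazaki fragments, had 6.05, 10.5, 5.75 and 6.37 CPM in 53BP1 KO and 15.2, 16.1, 16.7 and 17.7 CPM in control libraries. 53BP1 KO replicate 2 stood above the other 3 but below every control (log2 fold change -1.22, SE 0.17, adjusted p = 9.06e-05). Fen1, the flap endonuclease, fell as well (-1.08, SE 0.12). It shares exonic sequence with the opposite-strand gene Gm10143, whose level was 1.33 ± 0.231 CPM in 53BP1 KO and 1.68 ± 0.223 CPM in control libraries.

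RPA binds single-stranded DNA as a complex of 3 subunits. Rpa2, the subunit phosphorylated under replication stress, had 47.4, 40.2, 46.4 and 40.9 CPM in 53BP1 KO and 94.2, 89.8, 91.3 and 123 CPM in control libraries. The groups lay far apart, with control replicate 4 above the other controls (log2 fold change -1.18, SE 0.11, adjusted p = 3.29e-06). Rpa1, the large subunit that holds the main DNA-binding domains, fell less (log2 fold change -0.42, SE 0.11, adjusted p = 0.0079), and Rpa3, the smallest, had 33.0, 27.8, 45.2 and 31.4 CPM in 53BP1 KO and 40.6, 34.8, 28.9 and 35.7 CPM in control libraries with the groups mixed (log2 fold change -0.03, SE 0.15, adjusted p = 0.914, 95% interval -0.34 to 0.29). The log2 ratio of Rpa2 to Rpa1 averaged 1.47 ± 0.13 in 53BP1 KO and 2.22 ± 0.23 in control libraries (SD, n = 4 each). It differed by -0.75 with no overlap (adjusted p = 0.0429, exact permutation test). Without any 1 library other than control replicate 4 the adjusted p was 0.0571 by that test, with the ratios still apart.

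All 6 genes of nucleotide supply and uracil removal fell. Ung, the glycosylase that removes uracil from DNA, had 4.13, 7.23, 4.4 and 3.4 CPM in 53BP1 KO and 16.6, 14.5, 16.3 and 18.9 CPM in control libraries. This was the largest fall of the 37 genes, 3.57-fold, and 53BP1 KO replicate 2 was the highest of its group (log2 fold change -1.83, SE 0.19, adjusted p = 7.17e-06). Dut, which hydrolyses dUTP and so keeps uracil out of DNA, had 10.2, 7.23, 10.3 and 6.29 CPM in 53BP1 KO and 11.7, 12.2, 12.6 and 16.6 CPM in control libraries. Its groups were close but did not overlap, and its fall was the smallest of this role (log2 fold change -0.64, SE 0.18, adjusted p = 0.0136).

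Ribonucleotide reductase makes deoxynucleotides from ribonucleotides with a large subunit, Rrm1, and a small subunit, Rrm2. Rrm1 had 447, 356, 467 and 336 CPM in 53BP1 KO and 785, 753, 722 and 958 CPM in control libraries. The controls were higher throughout (log2 fold change -1.001, SE 0.12, adjusted p = 3.5e-05). Rrm2 had 311, 263, 323 and 231 CPM in 53BP1 KO and 610.5, 579.6, 569 and 688 CPM in control libraries, again with a wide gap (log2 fold change -1.12, SE 0.11, adjusted p = 5.26e-06). Per kilobase of annotated exon, Rrm2 had the highest level of the 37 genes on the mean of 4. It had 101.7 CPM per kilobase in 53BP1 KO and 221 in control libraries. Rrm1 had 36.5 in 53BP1 KO and 73.1 in control libraries. The length joins all annotated exons of a gene, 2771 bases for Rrm2 and 11012 for Rrm1, so this order depends on the annotation. Tk1, the thymidine kinase of the salvage route, had 19.3, 17.3, 21.2 and 13.2 CPM in 53BP1 KO and 52.9, 40.6, 43.1 and 55.6 CPM in control libraries, a 2.71-fold fall with no overlap (log2 fold change -1.44, SE 0.15, adjusted p = 6.81e-06). Exons of Tk1 overlap 83 bases of Afmid on the opposite strand, which did not pass (-0.47). Tyms, which makes thymidylate from deoxyuridylate, fell 2.19-fold (log2 fold change -1.13, SE 0.16, adjusted p = 1.38e-04). Its transcripts match the copy Tyms-ps, which has no counts here, over 677 bases at 95.6% identity. They also match transcripts of Reep3, Map3k2 and Jakmip2, among others, over 355 to 360 bases. How reads were shared among them was not tested.

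All 6 genes of chromatin assembly and methylation copying fell, with no overlap between groups for any of them. Chaf1b, the middle subunit of the histone chaperone CAF-1 that loads H3 and H4 behind the fork, had 13.4, 15.2, 13.9 and 9.06 CPM in 53BP1 KO and 39.1, 32.8, 35.5 and 46.9 CPM in control libraries. Its lowest control was 2.16 times its highest 53BP1 KO library, the widest gap among the 37 genes (log2 fold change -1.60, SE 0.16, adjusted p = 4.38e-06). Chaf1a, the large subunit, fell less (log2 fold change -0.96, SE 0.13, adjusted p = 5.71e-05); its exons overlap those of Ubxn6 on the opposite strand, which rose (0.53, SE 0.10). Asf1b, a chaperone that hands histones to CAF-1, had 29.9, 26.9, 34.5 and 24.1 CPM in 53BP1 KO and 57.8, 47.4, 50.1 and 61.5 CPM in control libraries, the smallest fall of this role and still a clear gap (log2 fold change -0.91, SE 0.12, adjusted p = 8.61e-05).

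Uhrf1 reads hemimethylated DNA behind the fork and brings in Dnmt1, which methylates the new strand. Both fell, Uhrf1 to 12.5 ± 2.23 CPM in 53BP1 KO, against 29.7 ± 3.59 CPM in control libraries (log2 fold change -1.26, SE 0.14, adjusted p = 1.22e-05), and Dnmt1 to 14.2 ± 1.8 CPM in 53BP1 KO, against 28.2 ± 1.57 CPM in control libraries (log2 fold change -0.99, SE 0.11, adjusted p = 1.65e-05). Gm5648, whose transcript matches Uhrf1 over 1590 bases at 98.3% identity, was also lower (-1.41, SE 0.29) but at a mean of 0.839 ± 0.182 CPM in 53BP1 KO and 2.29 ± 0.493 CPM in control libraries. Slbp, which binds the stem-loop of replication-dependent histone mRNAs, fell to 18.9 ± 0.934 CPM in 53BP1 KO, against 36.3 ± 2.46 CPM in control libraries (log2 fold change -0.94, SE 0.10, adjusted p = 6.72e-06).

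Partners in 1 complex or pathway were then compared by their log2 ratio within each library, which needs no scaling between libraries. Of 12 such pairs, 8 differed between the groups (two-sided exact permutation test of 4 against 4 libraries, where the smallest possible p is 0.0286, Benjamini-Hochberg adjusted over the 12 pairs to 0.0429 for each of the 8). The pairs were chosen with earlier results of these data known, and a ratio restates the fold changes of its genes. These p-values are therefore no independent support for the calls of single genes. With 1 library left out, the same exact permutation test passed no pair in 7 of the 8 cases (lowest adjusted p = 0.0571, with 6 pairs at an unadjusted p under 0.05 in each case). Without control replicate 4 it passed 7 pairs, all but Chaf1b over Chaf1a of the 8. The smallest possible p is 0.0286 here too, so the adjusted p depends on how many pairs reach it. The 8 pairs did not overlap with all libraries and so cannot overlap with 1 left out. These lost calls are therefore no measure of how far a ratio depends on 1 library. The 3 pairs that differed most each set one of the 37 genes against a relative outside them. Rrm2 over Rrm2b, the small subunit induced by p53 for repair and mitochondrial DNA, averaged 0.85 ± 0.23 in 53BP1 KO and 3.02 ± 0.14 in control libraries (SD, n = 4 each). Tk1 over Tk2, the mitochondrial thymidine kinase, averaged 2.39 ± 0.25 in 53BP1 KO and 4.40 ± 0.34 in control libraries. Asf1b over its paralog Asf1a averaged -1.31 ± 0.24 in 53BP1 KO and -0.17 ± 0.18 in control libraries. In each of these pairs the 4 53BP1 KO ratios lay below the 4 control ratios.

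Within complexes, Pold1 over the small subunit Pold4 differed by -0.91, or by -0.54 without control replicate 4, Pole2 over the histone-fold subunit Pole3 by -0.71, and Chaf1b over Chaf1a by -0.65 on the log2 scale. For Pole2 over Pole3 the groups came close, with 0.171 in 53BP1 KO replicate 4 and 0.225 in control replicate 4. The ratio of Chaf1b to Chaf1a is uncertain because of the overlap of Chaf1a with Ubxn6. The other 4 pairs did not pass. Among them, Rrm2 over Rrm1 differed by -0.12 (adjusted p = 0.0762, exact permutation), Uhrf1 over Dnmt1 by -0.26 (adjusted p = 0.137, exact permutation), and Rfc3 over Rfc1 by 0.04 (adjusted p = 0.771, exact permutation). The log2 ratio of the small to the large subunit of ribonucleotide reductase was -0.51 ± 0.05 in 53BP1 KO and -0.39 ± 0.06 in control libraries.

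**Figure D3:**
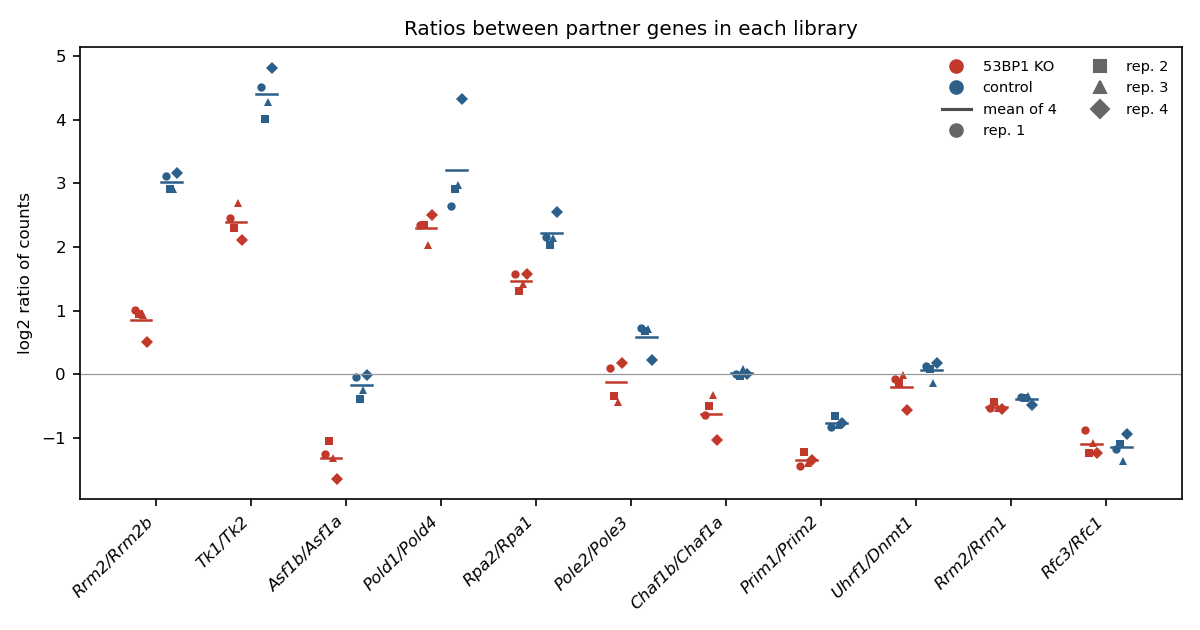
Log2 ratio of counts between the genes of 11 pairs in each of 4 53BP1 KO (red, left) and 4 control (blue, right) libraries, with the mean of 4 as a bar; pairs are ordered by the difference between groups. The ratio of Rrm2 to Rrm2b averages 0.85 ± 0.23 in 53BP1 KO and 3.02 ± 0.14 in control libraries, and the last 3 pairs overlap.

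Other genes of the same processes were counted in 4 lists, and the difference of these lists from the 37 was not tested. Over all genes tested, 13.9% fell and 16.1% rose. The share of rises in each list was near or under that, so rises are given for single genes only. Of 29 other fork and fork protection genes 20 fell and 2 rose, with a median of -0.62. The 3 largest falls were in Clspn, the checkpoint mediator claspin (-1.49, SE 0.14), Dna2, a nuclease and helicase of long flaps (-1.36, SE 0.12), and Wdhd1, which couples polymerase alpha to the helicase (-1.23, SE 0.13). The helicase gene Recql4 (0.80, SE 0.14) and Pole4, a histone-fold subunit of polymerase epsilon (0.45, SE 0.11), rose. Of 11 translesion and repair polymerase genes 4 fell and 2 rose, with a median of -0.13: Polq (-1.27, SE 0.17), Polh (-0.95, SE 0.10) and Rev1 (-0.60, SE 0.10) had the largest falls, and the rises were in Polb, the base excision repair polymerase (0.42, SE 0.13), and Primpol, a primase that restarts stalled forks (0.41, SE 0.14). The calls for Primpol and Polb were lost under 11 and 5 of 19 other settings.

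Of 31 tested genes of deoxynucleotide and nucleotide synthesis, 13 fell and 2 rose, with a median of -0.23, against 13.9% falling and 16.1% rising over all genes. Umps, which makes UMP (-1.05, SE 0.13), and Dck, the deoxycytidine kinase of salvage (-0.83, SE 0.10), were among the 3 largest falls. Rrm2b rose, with 154, 136, 169 and 162 CPM in 53BP1 KO and 70.2, 77.3, 75.6 and 76.7 CPM in control libraries (log2 fold change 1.05, SE 0.09, adjusted p = 1.02e-06), and Tk2 rose (0.57, SE 0.19), though the Tk2 call was lost under 14 of 19 other settings. Of 16 other histone chaperone genes 8 fell, with a median of -0.25, and Nasp, a carrier of H3 and H4, had the largest fall (-0.999, SE 0.10), followed by Npm1 (-0.58, SE 0.10) and Nap1l1 (-0.55, SE 0.09).

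Markers of other states of the cells moved with the groups. The counts of genes called below stand against 13.9% falling and 16.1% rising over all genes tested. Of 10 mitosis genes, among them Mki67 and Cdk1, 9 fell. Their sum was between 2336 and 2969 CPM in the 53BP1 KO libraries and between 4470.0 and 5362 CPM in the controls. Mki67 made up most of it, with means of 1431 CPM in 53BP1 KO and 2881 CPM in control libraries. Of 8 astrocyte markers, among them Gfap and Aqp4, 7 rose. Their sum was between 1039 and 1193 CPM in the 53BP1 KO libraries and between 287 and 417 CPM in the controls. Slc1a2 and Agt made up most of it. Slc1a2 had means of 459 CPM in 53BP1 KO and 212 CPM in control libraries. Agt had means of 382 CPM in 53BP1 KO and 61.9 CPM in control libraries, with 14.9 CPM in control replicate 4. The 11 progenitor markers overlapped in their sum, which was between 9488 and 12815 CPM in the 53BP1 KO libraries and between 9865 and 11953 CPM in the controls. Fabp7, the target of the sorting dye, made up most of that sum, with means of 7793 CPM in 53BP1 KO and 7591 CPM in control libraries. Singly, 6 progenitor markers rose and 3 fell, each with no overlap between the groups. The 10 neuron markers had 2 rising and 3 falling, and their sum was between 511 and 572 CPM in the 53BP1 KO libraries and between 544 and 693 CPM in the controls. The mesenchymal list summed to between 11.7 and 14.5 CPM in the 53BP1 KO libraries and between 30.1 and 77.9 CPM in the controls. Of its 5 tested genes 3 fell, Col1a1, Col3a1 and Lum, and 1 rose, the transcription factor gene Twist1, at 2.02 ± 0.25 CPM in 53BP1 KO and 0.345 ± 0.192 CPM in control libraries (log2 fold change 2.49, SE 0.38, adjusted p = 2.38e-04). The muscle list summed to between 17.8 and 21.2 CPM in the 53BP1 KO libraries and between 33.1 and 43.9 CPM in the controls, and 3 of its 4 tested genes fell. The part of these markers in the fall of the replication genes was not tested.

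**Figure D4:**
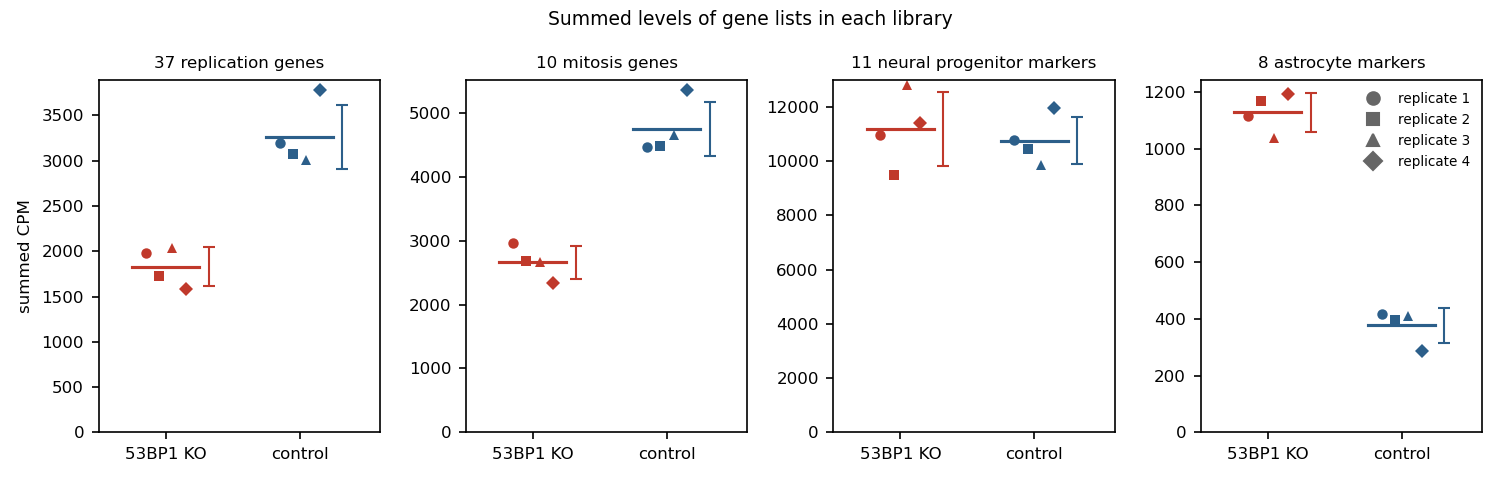
Summed CPM of the 37 replication genes, 10 mitosis genes, 11 neural progenitor markers and 8 astrocyte markers in each library, with the mean of 4 as a bar and its SD beside it, 53BP1 KO (red) left of control (blue). The sums of replication and mitosis genes are lower in all 4 53BP1 KO libraries, and that of astrocyte markers is higher in all 4. The sum of the progenitor markers overlaps, though 6 of these 11 genes rose and 3 fell. A few abundant genes make up most of each sum.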

How the data were processed

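The deposited table holds whole-number counts of reads per gene, not normalized. Per the submitters' processing notes, CASAVA and HTSeq 0.6.1p1 were used with builds mm9 and NCBIM37. Neither an aligner nor the strand setting of HTSeq is given in the sources used. Libraries were made with a stranded kit, per the labels' protocols. After filterByExpr and TMM scaling, edgeR 4.0.16 (quasi-likelihood test, R 4.3.3) compared 4 53BP1 KO against 4 control libraries with no covariate, and p-values were adjusted by Benjamini-Hochberg over 15021 genes at 0.05. CPM use TMM-scaled library sizes. The SE is the log2 fold change divided by the square root of F. Partner ratios used log2 of counts plus 0.5. The values of 1 pathway gene and of its pair are not reported here; both stay in the counts and adjustments. Alternatives were DESeq2 1.42.0, limma 3.58.1 voom, other scalings and filters, a replicate block and leaving out libraries.

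The members, gene lists, pairs and tests were chosen with earlier results of these data known. The rule for values in all libraries took, per role, the largest fall, the smallest change, the most abundant gene and every gene that did not pass, and for other pathway genes the 3 largest changes each way; other genes named with values belong to the 37, the pairs, the marker lists or the overlaps. Ung, Slbp, Uhrf1 and Dnmt1 were placed in roles here. Exon lengths and overlaps came from GENCODE M21 by symbol, copies from blastn of its transcripts (at least 95% over 300 bases). The fit was tested on simulated data. No replicate pair of a group agreed within sampling noise (chi-square per degree of freedom at least 4.45). Counting intervals were not needed, since no member had a count of 0.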

Additional observations from a re-analysis of the deposited data

Results flagged for a closer look

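Of 74 groups of 4 libraries, 1 per gene and genotype, 7 held a library whose gap to its nearest neighbour was too large a share of the group's range by Dixon's criterion for 4 values; chance alone flags about 1 in 20 groups. Among 53BP1 KO libraries these were Lig1 in replicate 2, at 10.5 CPM with the next at 6.37 CPM, and Rfc2 in replicate 4, at 16.1 CPM with the next at 18.7 CPM. In control replicate 4 they were Pole at 138.1 CPM with the next at 104.5 CPM, Rpa2 at 122.7 CPM with the next at 94.2 CPM, Pold3 at 88.3 CPM with the next at 76.9 CPM, and Tyms at 13.6 CPM with the next at 9.99 CPM. In control replicate 2 it was Rfc1, at 77.7 CPM with the next at 85.5 CPM. All 7 genes fell, and their calls held without the library in question.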

How the results depend on the processing

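Under 17 of the 19 other settings run on the whole table, between 31 and 33 of the 37 genes fell. It was 17 when called only beyond 1.5-fold by glmTreat, where 781 genes passed in all and 14 other pathway genes fell and 1 rose, and 29 without replicate 4 of both groups. No member rose under any setting. The choice to leave out both libraries, and that to sum Pcna with its copy, were made after seeing the data. Leaving out each library in turn gave between 3250 and 4625 genes changed, between 31 and 33 members fallen, between 43 and 46 other pathway genes fallen, and between 3 and 5 risen against 6 with all libraries. Gins2 was also lost with limma voom (-0.35) and Rpa1 without a filter on low counts (-0.36). For the genes near no change the sign varied. Gins4 was at -0.0129 with RLE factors, -0.0127 with DESeq2, -0.00895 with the replicate block, -0.00749 without the 5 most abundant genes, -0.0388 with upper-quartile factors and -0.0163 with the 1 CPM minimum, and between -0.0779 and 0.0698 as libraries were left out. With no filter on low counts Rfc4 was at 0.0349 and Rpa3 at 0.0361, and without replicate 4 of both groups at 0.12 for Rfc4 and 0.0164 for Rpa3. As libraries were left out, Rfc4 ran between -0.12 and 0.0802 and Rpa3 between -0.19 and 0.0542. Trp53bp1 was at -0.00188 with RLE factors, -0.0234 with upper-quartile factors, -0.00432 with the 1 CPM minimum, -0.000879 with DESeq2 and -0.0108 with the replicate block, and between -0.107 and 0.142 as libraries were left out. Pcna was at 0.29 when summed with Pcna-ps2. The cause of these moves was not tested.

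Replicate numbers did not pair the libraries: deviations of same-numbered libraries correlated at 0.25, 0.28, -0.16 and 0.01, and with the replicate block 33 members fell and 4177 genes changed. Of the other pathway genes named, the calls for Tk2, Primpol and Polb were lost most often, under 14, 11 and 5 of the 19 settings. Of the 12 partner ratios, between 0 and 7 passed as libraries were left out, against 8 with all libraries. This test was added after seeing the data, and its lost calls go with its smallest possible p, as described with the pairs. The SE of the 4 genes that did not pass was between 0.097 and 0.145, and replicate libraries varied beyond counting error.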
